A study of Rattus norvegicus with 12 samples.

Results

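The genes described here encode the enzymes that build and sulfate glycosaminoglycans, that is chondroitin and dermatan sulfate, heparan sulfate and hyaluronan. They were chosen by a list of 38 gene symbols, and each was represented by its transcript cluster on the array, the brightest one where a gene had several. Of the 38 genes, 34 had a cluster among 14300 genes with a symbol of their own and 27342 transcript clusters in all. Chsy3, Ndst3, Hs6st2 and Glce were not analysed here because the annotation used here gave no cluster with their symbol. Csgalnact2 was the 1 gene with 2 clusters.

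RNA came from proximal tibial epiphyses of 8 untreated Sprague-Dawley rats aged 10 days and was hybridised to 12 arrays of the type Affymetrix Rat Gene 1.0 ST, 4 for each of 3 cartilage zones. Articular cartilage was divided into a superficial zone (SZ) and an intermediate/deep zone (IDZ), and growth plate cartilage gave the resting zone (RZ), all cut from stained sections by hand. An SZ sample held both proximal tibias of 1 animal, whereas an IDZ or RZ sample pooled the same zone of 2 animals, and IDZ and RZ samples of one number came from the same 2 animals. The 4 animals of the SZ samples were those that also gave replicates 3 and 4 of IDZ and RZ, so the zones were not sampled from separate animals. All values are on the log2 scale, on which a difference of 1 is 2-fold, and they are compared between zones for one gene and never between genes. Adjusted P-values are from limma over all clusters, with 0.05 as the threshold, and rest on the spread between these samples. Unless stated otherwise they are from the main fit, of the deposited values on all 12 arrays without a block for animals. Each gene had a common spread for the 3 zones. The SZ arrays, whose SD was mostly the largest, thus also enter the tests and intervals of IDZ against RZ.

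Chondroitin and heparan sulfate are assembled in the Golgi on serine residues of proteoglycan core proteins. A short linkage region is made first, after which the chain grows either as chondroitin or as heparan, and sulfotransferases and epimerases then modify it with sulfate taken from PAPS, its activated form. Hyaluronan is made at the plasma membrane without a core protein or sulfate. In cartilage, chondroitin sulfate chains on aggrecan hold water and resist compression, and heparan sulfate binds growth factors and hedgehog proteins.

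The early steps and the chondroitin chain enzymes were mostly lower in SZ, whereas the heparan sulfate enzymes that differed were mostly higher there. Of the 13 measured enzymes that make the linkage region, the precursors or the chondroitin chain, 9 were higher in IDZ than in SZ and 4 did not pass the test, and the zone means of all 13 were lower in SZ. Of the 12 measured enzymes of heparan sulfate, 6 were higher in SZ, 1 was higher in IDZ and 5 did not pass. The median difference (SZ minus IDZ) was -0.50 for the first group and 0.33 for the second, against -0.03 for all 14300 genes. RZ compared with SZ gave the same counts, 9 and 0 for the first group and 1 and 6 for the second (higher in RZ and in SZ), with medians (SZ minus RZ) of -0.72 and 0.44 against -0.01 for all genes. Both comparisons used the same SZ arrays. The 2 groups are not alike, because the second takes in enzymes that modify the heparan chain. It also holds Sulf1 and Sulf2, which remove sulfates from finished heparan sulfate, and both were among its 6 higher in SZ. The first leaves out the 6 that modify the chondroitin chain, of which 4 were higher in SZ than in IDZ and 2 in IDZ (median 0.68). Of the 5 enzymes of the heparan chain alone, 2 were higher in SZ than in IDZ and 1 in IDZ (median -0.06).

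Over all 34 enzymes, 11 (32.4%) were higher in SZ than in IDZ and 13 (38.2%) were higher in IDZ. The shares among the 14300 genes were 17.0% for SZ and 9.56% for IDZ. Among the 8365 genes at or above the median level of all clusters, where 32 of the 34 enzymes lay, they were 22.7% and 13.8%. Of the 34, 10 (29.4%) were higher in SZ than in RZ and 12 (35.3%) were higher in RZ, against 14.5% and 12.2% of the 14300 genes and 17.9% and 18.6% of the brighter ones. Between IDZ and RZ, 2 (5.88%) were higher in IDZ and 4 (11.8%) in RZ, against 3.22% and 5.58% of the 14300 genes and 4.71% and 8.36% of the brighter ones. A difference among the 3 zones in any direction was found for 24 (70.6%) of the enzymes, against 32.0% of the 14300 genes and 44.4% of the brighter ones.

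At a difference of at least 2-fold the counts were smaller. Chst3, Chst15 and Hs3st1 were higher in SZ than in IDZ (3 of 34, against 4.57% of the 14300 genes and 6.14% of the brighter ones). Papss2, Chst11 and Extl1 were higher in IDZ (3 of 34, against 1.01% and 1.6%). Ext1, Hs3st1, Sulf1 and Sulf2 were higher in SZ than in RZ (4 of 34, against 4.92% and 6.49%). Xylt1, Ugdh, Papss2, Csgalnact1, Chsy1, Chst11 and Extl1 were higher in RZ (7 of 34, against 1.75% and 2.68%). Sulf1 and Sulf2 were higher in IDZ than in RZ (2 of 34, against 0.706% and 1.09%), and 0 of 34 were at least 2-fold higher in RZ, against 0.524% and 0.765%.

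**Figure D1:**
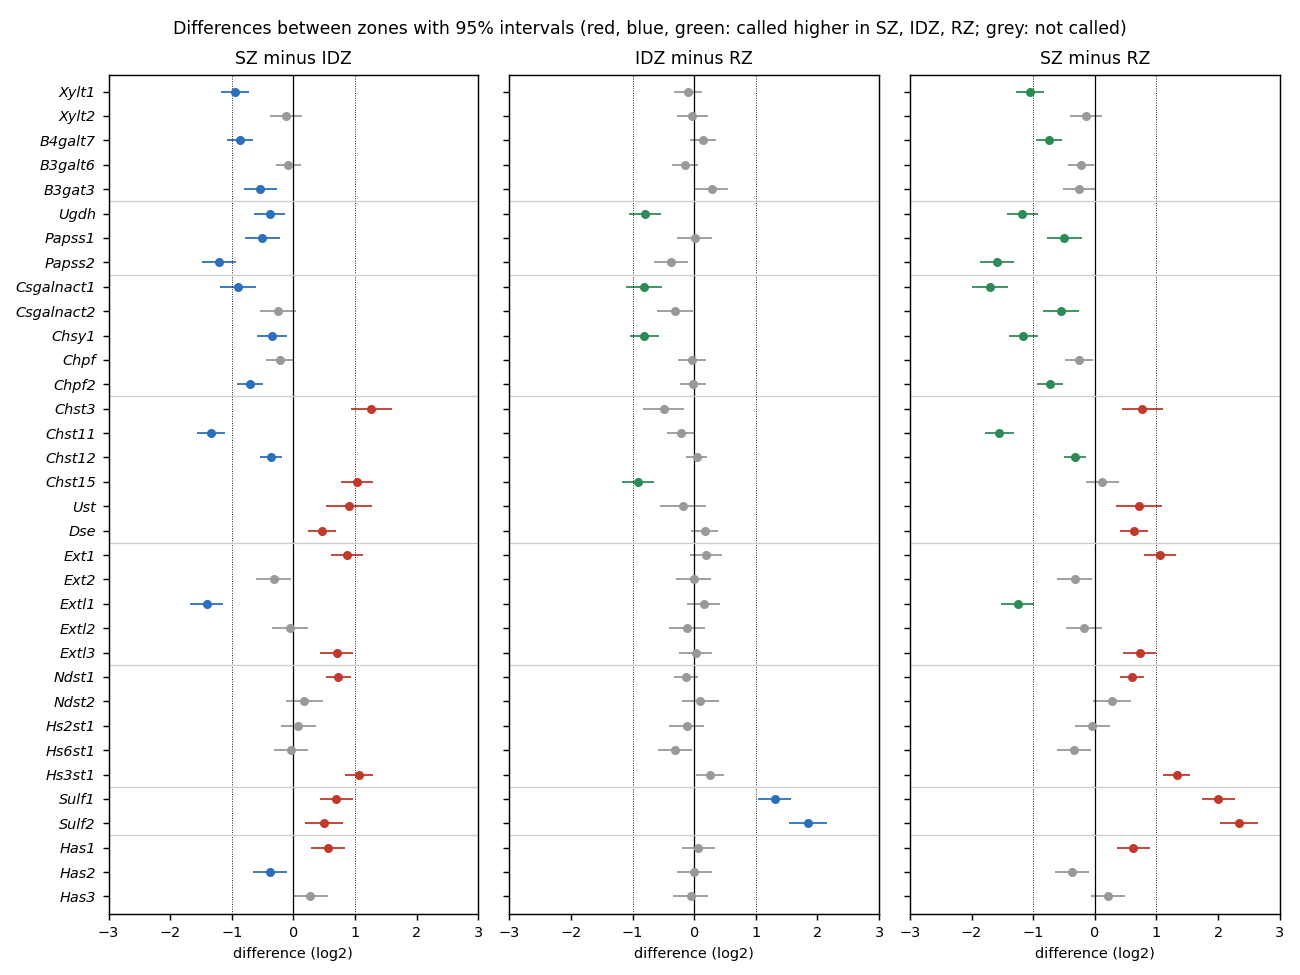
Differences between zones on the log2 scale (horizontal axis) for the 34 enzymes, ordered by role with a line between roles. Points are differences of zone means over 4 arrays each and bars are 95% intervals, red, blue and green mark enzymes higher in SZ, IDZ and RZ at an adjusted P under 0.05, grey marks those that did not pass, and dotted lines mark 2-fold. The upper 13 enzymes lie left of 0 in the comparisons with SZ, and Sulf1 and Sulf2 stand apart to the right in IDZ minus RZ, at 1.31 and 1.84.

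The joint surface marker and most markers of other cell types were highest in SZ, and most cartilage markers were lowest there. Prg4, the lubricin of the joint surface, averaged 12.78 in SZ, 10.30 in IDZ and 5.68 in RZ, and IDZ replicate 4 stood apart at 8.86, against 10.61 to 10.95 on the other IDZ arrays. Of 7 measured cartilage markers, such as Acan, Col9a1 and Matn3, 6 were lower in SZ than in IDZ, and their mean per array ranged from 12.01 to 12.32 in SZ, from 13.00 to 13.10 in IDZ and from 12.92 to 13.10 in RZ. All 5 measured endothelial markers were higher in SZ than in IDZ (means per array 8.79 to 9.43 in SZ, 6.75 to 7.14 in IDZ and 6.52 to 6.81 in RZ). So were all 5 measured pericyte and smooth muscle markers (9.52 to 10.04, 7.15 to 7.71 and 6.97 to 7.19). The same held for all 7 measured macrophage and osteoclast markers (8.74 to 9.47, 6.89 to 7.12 and 6.57 to 7.38) and for 6 of 7 measured fibroblast and tendon markers (10.33 to 10.73, 7.61 to 8.22 and 6.92 to 7.26). Of the 4 skeletal muscle markers, 0 were higher in SZ than in IDZ and 1, Tnnt3, was higher in IDZ, and neither of the 2 measured erythroid markers, Hbb and Alas2, passed. Between SZ and RZ, Acta1 was higher in SZ (0.83, adjusted P = 0.034) and Tnnt3 was higher in RZ (SZ minus RZ -1.03, adjusted P = 7.99e-06). The endothelial, pericyte, macrophage and fibroblast markers thus moved with the differences between SZ and the other zones, and their part in those differences was not tested. Between IDZ and RZ, 3 of the 24 measured markers of these 4 lists passed, each higher in IDZ. They were Col3a1 by 1.97 (adjusted P = 4.99e-07), Dpt by 1.78 (adjusted P = 0.000467) and Pdgfrb by 0.80 (adjusted P = 0.000228). Tnnt3 was also higher in IDZ than in RZ, by 0.55 (adjusted P = 0.00964). Of the 2 measured markers of hypertrophic chondrocytes, Col10a1 averaged 6.99 in SZ, 7.81 in IDZ and 8.30 in RZ and was lower in SZ than in IDZ (adjusted P = 0.0116) and RZ (adjusted P = 0.000305). Ibsp, which bone cells also make, averaged 8.03, 6.94 and 8.49 and passed between IDZ and RZ (-1.55, adjusted P = 0.0276). In bulk tissue, fewer cells of a type and less RNA per cell cannot be told apart.

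SZ replicate 4 was the lowest of the 4 SZ arrays for 27 of the 34 enzymes (79.4%) and for 76.4% of the 8365 brighter genes. Without it, SZ compared with IDZ gave 13 enzymes above and 12 below, and SZ compared with RZ gave 11 above and 13 below.

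Of the 5 enzymes of the linkage region, which joins chondroitin and heparan chains to their core proteins, Xylt1, B4galt7 and B3gat3 were lower in SZ than in IDZ and Xylt1 and B4galt7 lower in SZ than in RZ. Xylt1, which adds the first xylose, stood at 10.68, 11.09, 11.20 and 10.86 on the 4 SZ arrays, at 11.91, 11.91, 11.91 and 11.90 on the IDZ arrays and between 11.92 and 12.09 on the 4 RZ arrays. Every SZ array thus lay below every IDZ and RZ array. It was 1.94-fold higher in IDZ than in SZ (difference SZ minus IDZ -0.95 ± 0.11, SE, adjusted P = 8.74e-06) and 2.08-fold higher in RZ than in SZ (adjusted P = 2.33e-06). Xylt2, which catalyses the same step, stood at 8.32, 8.46, 8.39 and 7.88 in SZ, at 8.36, 8.51, 8.27 and 8.38 in IDZ and at 8.57, 8.38, 8.37 and 8.31 in RZ. The 3 zones overlapped, and none of its 3 comparisons passed.

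Within an array, Xylt1 minus Xylt2 was 2.69 ± 0.27 (SD, n = 4 arrays) in SZ, 3.53 ± 0.10 in IDZ and 3.61 ± 0.06 in RZ. The difference between SZ and IDZ was -0.84 (two-sided exact permutation test over 70 assignments of the arrays, P = 0.0286, adjusted P = 0.0468 over 36 such tests), so the 2 log2 values changed unequally. That P was the smallest that 4 arrays against 4 allow, and 22 of the 36 tests on 12 pairs of related enzymes reached it, so these tests do not rank the pairs. They treat the arrays as independent and so leave out the animals that the zones share.

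B4galt7, the galactosyltransferase that follows, was 1.83-fold higher in IDZ than in SZ (adjusted P = 1.03e-05) and 1.67-fold higher in RZ than in SZ (adjusted P = 4.59e-05). B3gat3, which completes the linkage region with glucuronic acid, was 1.45-fold higher in IDZ than in SZ (adjusted P = 0.00534). In the main fit it did not pass between SZ and RZ (-0.25, 95% interval -0.52 to 0.01) or between IDZ and RZ. With IDZ and RZ fitted alone it was higher in IDZ, with or without a block for animals. B3galt6, the second galactosyltransferase, gave -0.08 between SZ and IDZ (95% interval -0.29 to 0.13) and did not pass in any comparison.

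All 3 enzymes that make the sugar and sulfate donors were lower in SZ than in IDZ and RZ. Papss2, 1 of the 2 synthases of PAPS, stood at 9.94, 10.12, 10.45 and 9.75 in SZ, at 11.19, 11.17, 11.31 and 11.41 in IDZ and at 11.71, 11.76, 11.51 and 11.62 in RZ. The zones did not overlap, and Papss2 rose from SZ to IDZ by 2.31-fold (-1.21 ± 0.13, SE, adjusted P = 6.07e-06) and differed 3.00-fold between SZ and RZ (adjusted P = 2.45e-07). Its difference between IDZ and RZ, -0.38, did not pass (adjusted P = 0.104). It passed when these zones were fitted alone, with the shared animals as a block (adjusted P = 0.0262) or without it.

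Papss1, the other synthase, stood at 9.51, 9.60, 9.74 and 9.05 in SZ, at 9.98, 9.89, 9.89 and 10.14 in IDZ and at 10.06, 9.97, 9.80 and 10.04 in RZ. Every SZ array was below the others, and the fold was 1.42 between SZ and IDZ (adjusted P = 0.0112) and 1.41 between SZ and RZ (adjusted P = 0.0129). Within an array, Papss1 minus Papss2 fell from -0.59 ± 0.14 (SD) in SZ to -1.29 ± 0.09 in IDZ and -1.68 ± 0.09 in RZ, without overlap between any of the zones (adjusted P = 0.0468 for each comparison, exact permutation test).

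Ugdh makes UDP-glucuronic acid, a building block of chondroitin, heparan and hyaluronan alike. It stood at 9.14, 9.18, 8.99 and 8.59 in SZ, at 9.50, 9.31, 9.25 and 9.38 in IDZ and at 10.25, 10.09, 10.12 and 10.16 in RZ. RZ was the highest zone, 1.73-fold above IDZ (adjusted P = 0.000625) and 2.26-fold above SZ (adjusted P = 2.5e-06). The smaller difference between SZ and IDZ, -0.38 ± 0.12 (SE), passed at an adjusted P of 0.0302, but not without SZ replicate 3 (0.0523) or IDZ replicate 1 (0.0909), 2 (0.0554) or 4 (0.0638).

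Of the 5 measured enzymes of the chondroitin chain, 3 were lower in SZ than in IDZ, 4 were lower in SZ than in RZ, and 2, Csgalnact1 and Chsy1, were also lower in IDZ than in RZ. Csgalnact1, which starts the chondroitin chain with N-acetylgalactosamine, stood at 8.82, 9.23, 9.05 and 8.43 in SZ, at 9.88, 9.76, 9.71 and 9.75 in IDZ and at 10.59, 10.47, 10.60 and 10.68 in RZ. The 3 zones were separate, with IDZ 1.86-fold above SZ (-0.89 ± 0.14, SE, adjusted P = 0.000188), RZ 1.76-fold above IDZ (adjusted P = 0.00167) and RZ 3.26-fold above SZ (adjusted P = 2.04e-07). Csgalnact2, its paralog, stood at 9.21, 9.27, 9.36 and 8.64 in SZ, at 9.44, 9.29, 9.30 and 9.47 in IDZ and at 9.79, 9.59, 9.55 and 9.78 in RZ. SZ and IDZ overlapped, and of its comparisons SZ with RZ passed (1.47-fold, adjusted P = 0.00795). IDZ with RZ (-0.30) passed when these zones were fitted alone, with the shared animals as a block (adjusted P = 0.0216) or without it. Csgalnact1 minus Csgalnact2 within an array was -0.24 ± 0.15 (SD) in SZ, 0.40 ± 0.09 in IDZ and 0.91 ± 0.11 in RZ, again without overlap.

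Chsy1, a synthase that extends the chain, stood at 10.20, 10.47, 10.32 and 9.98 in SZ, at 10.68, 10.62, 10.48 and 10.57 in IDZ and at 11.47, 11.55, 11.33 and 11.25 in RZ. RZ was higher than both articular zones, 1.75-fold above IDZ (adjusted P = 0.000277) and 2.23-fold above SZ (adjusted P = 1.36e-06). The difference between SZ and IDZ, -0.35 ± 0.11 (SE, adjusted P = 0.0344), did not pass without SZ replicate 1 (0.0829) or IDZ replicate 1 (0.0912), 2 (0.0834) or 4 (0.063).

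Chpf and Chpf2 are the polymerizing factors that act with the synthases. Chpf2 stood at 9.73, 9.86, 9.76 and 9.46 in SZ, at 10.40, 10.51, 10.35 and 10.37 in IDZ and at 10.56, 10.41, 10.39 and 10.35 in RZ. It was 1.63-fold higher in IDZ than in SZ (adjusted P = 7.29e-05) and 1.65-fold higher in RZ than in SZ (adjusted P = 5.01e-05), with no overlap. Chpf stood at 9.63, 9.71, 9.66 and 9.37 in SZ, at 9.63, 9.80, 9.87 and 9.96 in IDZ and at 9.97, 9.90, 9.79 and 9.74 in RZ, and it passed in no comparison of the main fit. Chpf minus Chpf2 within an array was -0.11 ± 0.03 (SD) in SZ, -0.60 ± 0.17 in IDZ and -0.58 ± 0.05 in RZ, with SZ above both other zones.

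The enzymes that sulfate or epimerize the chondroitin chain did not move together. Of 6, 4 were higher in SZ than in IDZ (Chst3, Chst15, Ust and Dse) and 2 were higher in IDZ (Chst11 and Chst12). Chst11, a sulfotransferase for the 4-O position of N-acetylgalactosamine, stood at 11.12, 11.34, 11.66 and 11.28 in SZ, at 12.64, 12.71, 12.70 and 12.71 in IDZ and at 12.99, 12.95, 12.85 and 12.80 in RZ. Every SZ array was below every IDZ and RZ array. Chst11 was 2.53-fold higher in IDZ than in SZ (-1.34 ± 0.11, SE, adjusted P = 3.31e-07) and 2.92-fold higher in RZ than in SZ (adjusted P = 3.97e-08), and IDZ minus RZ, -0.21 (95% interval -0.44 to 0.02), did not pass.

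Chst12, which sulfates the same position, stood at 9.39, 9.31, 9.35 and 9.21 in SZ, at 9.64, 9.75, 9.62 and 9.70 in IDZ and at 9.75, 9.64, 9.59 and 9.57 in RZ. It changed in the same direction by less, 1.29-fold between SZ and IDZ (adjusted P = 0.00458) and 1.25-fold between SZ and RZ (adjusted P = 0.00997). Chst11 minus Chst12 within an array was 2.04 ± 0.24 (SD) in SZ, 3.01 ± 0.05 in IDZ and 3.26 ± 0.04 in RZ, without overlap between any of the zones.

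Chst3, the sulfotransferase for the 6-O position of N-acetylgalactosamine, went the other way. It stood at 8.66, 8.82, 8.76 and 8.10 in SZ, at 7.47, 7.02, 7.53 and 7.26 in IDZ and at 8.03, 7.61, 7.84 and 7.77 in RZ. SZ was above both other zones on every array, 2.40-fold above IDZ (1.26 ± 0.16, SE, adjusted P = 2.63e-05) and 1.71-fold above RZ (adjusted P = 0.00196). IDZ minus RZ was -0.49 and did not pass (adjusted P = 0.0791). It passed when these zones were fitted alone, with the shared animals as a block (adjusted P = 0.00397) or without it. Chst11 minus Chst3 within an array was 2.46, 2.52, 2.90 and 3.18 in SZ, 5.17, 5.69, 5.17 and 5.44 in IDZ and 4.95, 5.34, 5.01 and 5.03 in RZ. SZ lay below the other zones by -2.60 (SZ minus IDZ) and -2.32 (SZ minus RZ), and IDZ and RZ overlapped. The size of such a difference within an array depends on both probe sets and gives no ratio of the 2 transcripts. Its change between zones says that the 2 log2 values changed unequally, and since these values compress small signals, a pair of a bright and a dim gene can do so without the transcripts doing the same.

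Chst15, which adds a further sulfate to chondroitin already sulfated at the 4-O position, was lowest in IDZ. It stood at 7.47, 7.65, 7.37 and 7.16 in SZ, at 6.25, 6.54, 6.21 and 6.51 in IDZ and at 7.39, 7.17, 7.47 and 7.12 in RZ. SZ and RZ overlapped and both lay above every IDZ array, SZ by 2.05-fold (1.03 ± 0.12, SE, adjusted P = 1.81e-05) and RZ by 1.88-fold (adjusted P = 0.000264). SZ minus RZ was 0.12 (95% interval -0.14 to 0.39). All 4 IDZ values lay below the median of every array (6.76 to 6.90), where signals are compressed, and no detection measure was used. Chst15 was higher in both SZ and RZ than in IDZ, a pattern that Chst3 also showed when IDZ and RZ were fitted alone.

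Ust, which sulfates the uronic acid of the chain, was 1.86-fold higher in SZ than in IDZ (adjusted P = 0.00142) and 1.64-fold higher in SZ than in RZ (adjusted P = 0.00775, with overlapping arrays). Dse, the epimerase that turns chondroitin into dermatan sulfate, was 1.38-fold higher in SZ than in IDZ (adjusted P = 0.00451) and 1.55-fold higher in SZ than in RZ (adjusted P = 0.000353).

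**Figure D2:**
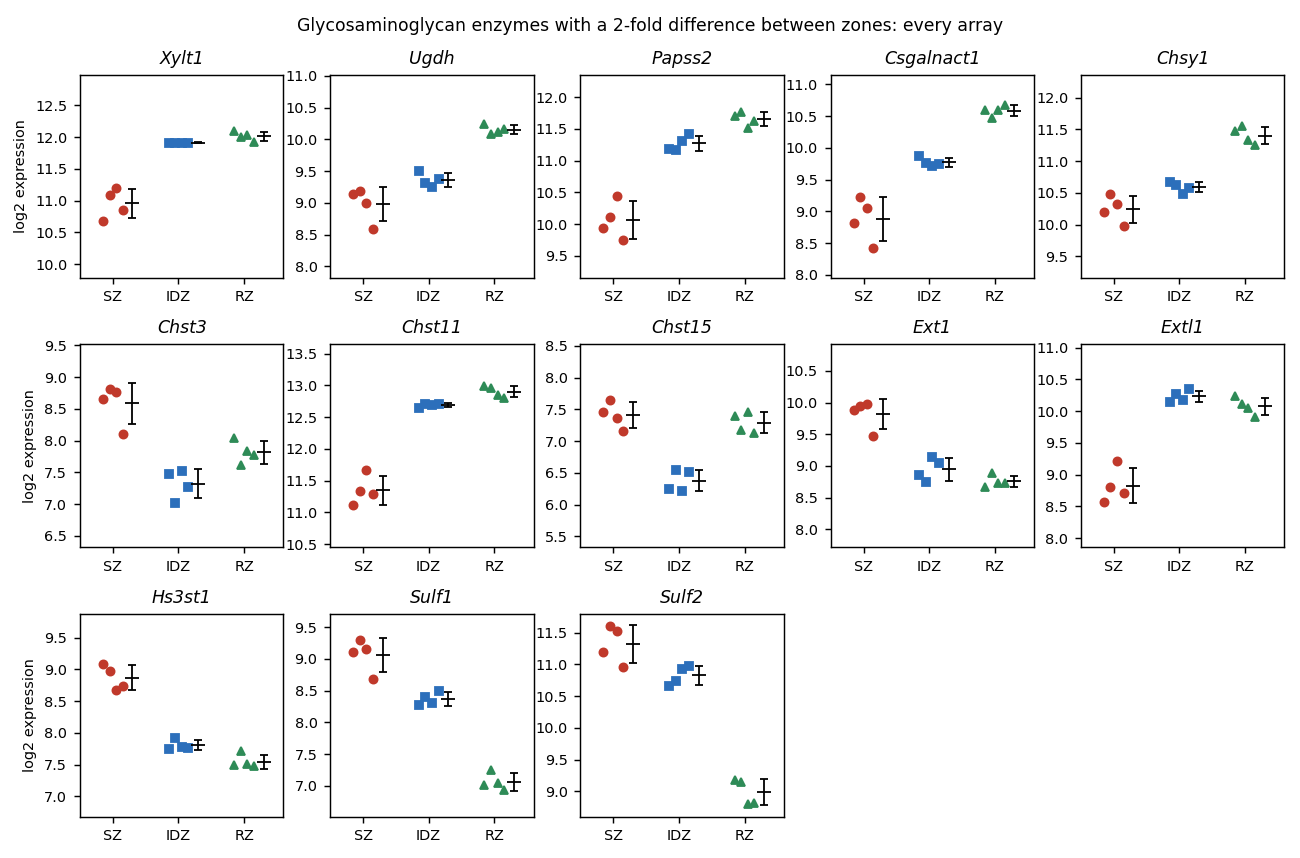
Log2 expression (vertical axis, each panel spanning the same number of log2 units) of the 13 enzymes with a difference of at least 2-fold between any 2 zones, on each of the 4 SZ (circles), IDZ (squares) and RZ (triangles) arrays in replicate order, with the mean and SD of each zone beside the points. Csgalnact1 rises from SZ over IDZ to RZ, Sulf1 and Sulf2 fall in that order, and Chst15 is lowest in IDZ, between 6.21 and 6.54.

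Among the 5 glycosyltransferases of the heparan chain, Ext1 and Extl3 were higher in SZ, Extl1 was lower in SZ, and Ext2 and Extl2 did not pass. Ext1, which forms the heparan polymerase together with Ext2, stood at 9.88, 9.95, 9.97 and 9.48 in SZ, at 8.85, 8.74, 9.14 and 9.04 in IDZ and at 8.67, 8.88, 8.74 and 8.74 in RZ. Every SZ array was above the others, 1.83-fold on average above IDZ (0.87 ± 0.12, SE, adjusted P = 8.04e-05) and 2.09-fold above RZ (adjusted P = 9.43e-06). Ext2 stood at 10.43, 10.55, 10.42 and 9.85 in SZ, at 10.66, 10.66, 10.62 and 10.58 in IDZ and at 10.78, 10.74, 10.56 and 10.47 in RZ. It pointed the opposite way without passing in the main fit (SZ minus IDZ -0.32, adjusted P = 0.104). Within an array, Ext1 minus Ext2 was -0.49 ± 0.10 (SD) in SZ, -1.68 ± 0.21 in IDZ and -1.88 ± 0.16 in RZ, so that the log2 values of the 2 partners changed unequally between SZ and each of the other zones (adjusted P = 0.0468, exact permutation test).

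Extl1 and Extl3 belong to the same family, and both can add N-acetylglucosamine to a growing chain, Extl3 also to the linkage region. Extl1 stood at 8.57, 8.81, 9.21 and 8.71 in SZ, at 10.14, 10.27, 10.17 and 10.34 in IDZ and at 10.24, 10.11, 10.04 and 9.91 in RZ. It was lowest in SZ on every array, with IDZ 2.65-fold above SZ (-1.41 ± 0.13, SE, adjusted P = 9.86e-07) and RZ 2.38-fold above SZ (adjusted P = 2.33e-06). Extl3 stood at 9.66, 9.66, 10.11 and 9.56 in SZ, at 8.85, 8.97, 9.05 and 9.31 in IDZ and at 9.07, 9.11, 8.96 and 8.93 in RZ. It was highest in SZ, 1.63-fold above IDZ (0.70 ± 0.13, SE, adjusted P = 0.000726) and 1.66-fold above RZ (adjusted P = 0.000512).

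Extl1 minus Extl3 within an array was -1.09, -0.85, -0.90 and -0.85 in SZ, 1.30, 1.30, 1.12 and 1.04 in IDZ and 1.16, 1.00, 1.08 and 0.98 in RZ. Every SZ array lay below every IDZ and RZ array, by -2.11 on average against IDZ and by -1.98 against RZ, and IDZ and RZ overlapped.

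**Figure D3:**
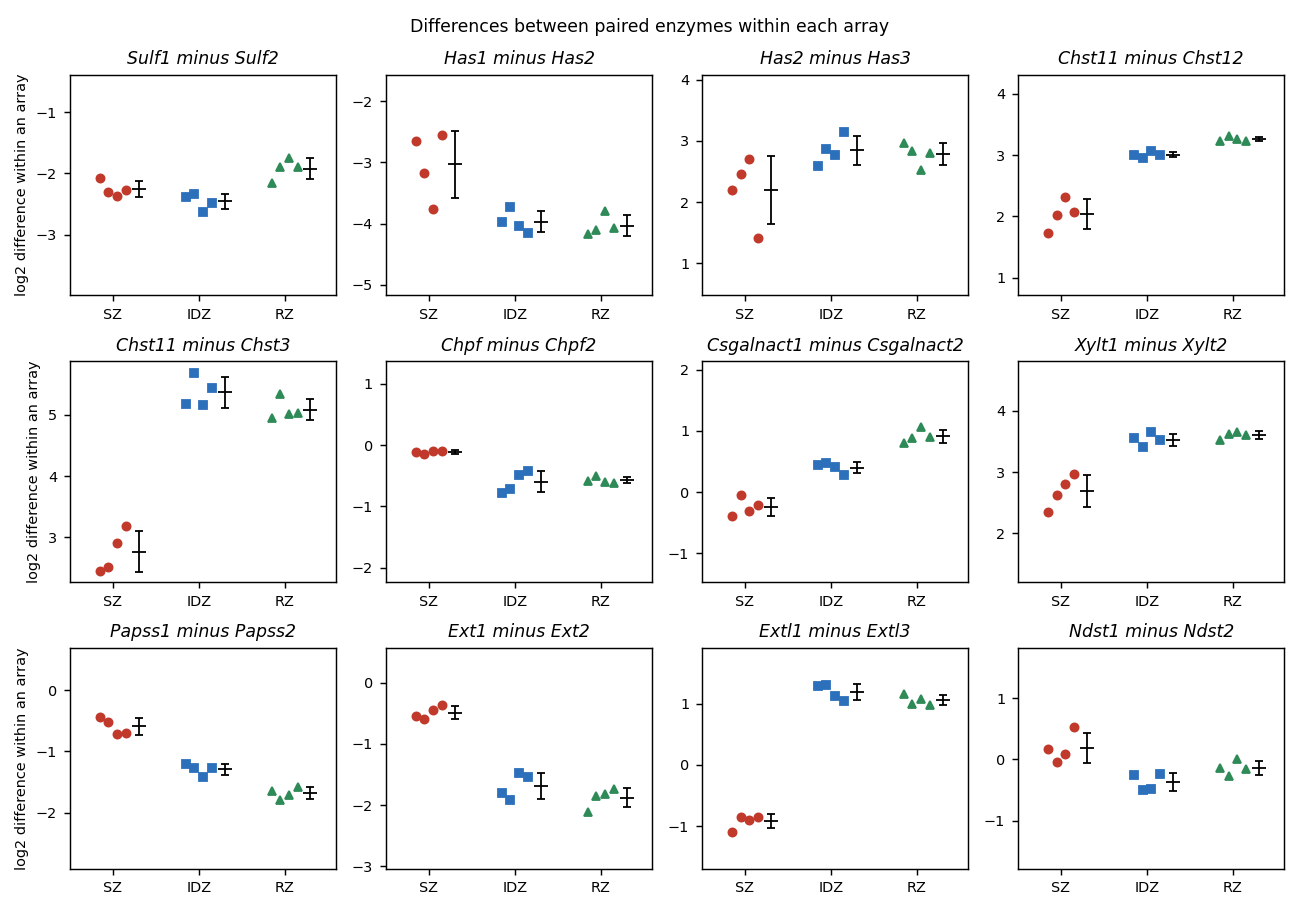
Log2 difference between 2 related enzymes within each array (vertical axis, each panel spanning the same number of log2 units) for the 12 measured pairs, on the 4 SZ (circles), IDZ (squares) and RZ (triangles) arrays, with the mean and SD of each zone beside the points. SZ stands apart from IDZ and RZ for Chst11 minus Chst3 and for Extl1 minus Extl3, whereas all 3 zones are separate for Chst11 minus Chst12, Csgalnact1 minus Csgalnact2 and Papss1 minus Papss2.

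Of the 5 measured enzymes that modify the heparan chain, Ndst1 and Hs3st1 were higher in SZ than in both other zones. Hs3st1, which adds the rare sulfate at the 3-O position, stood at 9.09, 8.97, 8.67 and 8.74 in SZ, at 7.75, 7.92, 7.77 and 7.77 in IDZ and at 7.48, 7.71, 7.51 and 7.47 in RZ. SZ was 2.09-fold above IDZ (1.06 ± 0.10, SE, adjusted P = 2.52e-06) and 2.50-fold above RZ (adjusted P = 1.71e-07). Every IDZ array lay above every RZ array, and the mean difference of 0.26 did not pass (adjusted P = 0.179). It passed when these zones were fitted alone, with the shared animals as a block (adjusted P = 0.0382) or without it. Ndst1, which removes acetyl groups and puts N-sulfate in their place, stood at 8.97, 9.09, 8.94 and 8.83 in SZ, at 8.26, 8.23, 8.15 and 8.27 in IDZ and at 8.47, 8.28, 8.48 and 8.21 in RZ. SZ was 1.66-fold above IDZ (adjusted P = 3.06e-05) and 1.51-fold above RZ (adjusted P = 0.000178).

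Ndst2, which carries out the same reaction, stood at 8.80, 9.13, 8.86 and 8.30 in SZ, at 8.51, 8.73, 8.63 and 8.50 in IDZ and at 8.60, 8.55, 8.47 and 8.36 in RZ. The zones overlapped and no comparison passed, and Ndst1 minus Ndst2 within an array differed by 0.55 between SZ and IDZ without overlap (adjusted P = 0.0468, exact permutation test). Hs2st1 and Hs6st1, which sulfate the 2-O and 6-O positions, did not pass in any comparison of the main fit. With IDZ and RZ fitted alone, Hs6st1 was higher in RZ, with the shared animals as a block (-0.30, adjusted P = 0.0234) or without it. The differences of Hs2st1 and Hs6st1 between SZ and IDZ were 0.08 (95% interval -0.21 to 0.36) and -0.04 (-0.31 to 0.24).

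The largest differences among the enzymes were those of Sulf1 and Sulf2, extracellular endosulfatases that remove 6-O sulfates from finished heparan sulfate. Sulf2 stood at 11.19, 11.60, 11.52 and 10.96 in SZ, at 10.66, 10.74, 10.92 and 10.98 in IDZ and at 9.18, 9.14, 8.80 and 8.82 in RZ. All 8 articular arrays were above every RZ array, SZ by 5.03-fold (2.33 ± 0.14, SE, adjusted P = 1.27e-08) and IDZ by 3.58-fold (1.84 ± 0.14, adjusted P = 1.13e-06). SZ and IDZ overlapped, and their difference, 0.49 (adjusted P = 0.0227), did not pass without SZ replicate 2 (0.0746) or 3 (0.0668) or IDZ replicate 1 (0.0716) or 2 (0.0668).

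Sulf1 stood at 9.11, 9.30, 9.15 and 8.68 in SZ, at 8.27, 8.40, 8.30 and 8.50 in IDZ and at 7.02, 7.24, 7.05 and 6.93 in RZ. The 3 zones did not overlap, and Sulf1 fell from SZ to IDZ by 1.62-fold (0.69 ± 0.12, SE, adjusted P = 0.000688), from IDZ to RZ by 2.48-fold (1.31 ± 0.12, adjusted P = 8.03e-06) and from SZ to RZ by 4.01-fold (adjusted P = 1.23e-08). Sulf1 minus Sulf2 within an array was -2.46 ± 0.13 (SD) in IDZ and -1.93 ± 0.17 in RZ without overlap, so the 2 log2 values did not differ by the same amount between these zones. Sulf1 and Sulf2 were the 2 enzymes of the 34 that passed in all 3 comparisons with SZ highest and RZ lowest.

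Differences of the hyaluronan synthases stayed under 2-fold. Has2 stood at 8.94, 9.11, 9.41 and 8.67 in SZ, at 9.27, 9.42, 9.48 and 9.46 in IDZ and at 9.49, 9.44, 9.26 and 9.43 in RZ. SZ overlapped the other zones, and the difference SZ minus IDZ, -0.38, passed at an adjusted P of 0.0482 but did not when any single array other than SZ replicate 3 was left out (adjusted P between 0.0533 and 0.12). Has1 stood at 6.28, 5.94, 5.65 and 6.11 in SZ, at 5.31, 5.69, 5.45 and 5.32 in IDZ and at 5.32, 5.33, 5.47 and 5.36 in RZ. Its signal was below the median of all clusters in every zone, and it was 1.47-fold higher in SZ than in IDZ (adjusted P = 0.0047) and 1.54-fold higher than in RZ (adjusted P = 0.00194). Has3, the other enzyme below that median on average, gave 0.27 between SZ and IDZ (95% interval -0.01 to 0.55) and did not pass.

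Between IDZ and RZ, Sulf1 and Sulf2 of the 34 enzymes measured were higher in IDZ, as were Prg4, Col3a1, Dpt, Pdgfrb and Tnnt3 among the markers, and Ugdh, Csgalnact1, Chsy1 and Chst15 were higher in RZ, as was Ibsp. The part of these markers in the differences was not tested. Fitting the IDZ and RZ arrays with the shared animals as a block raised the counts to 4 and 8, with B3gat3 (adjusted P = 0.0447) and Hs3st1 (0.0382) added in IDZ, and Papss2 (0.0262), Csgalnact2 (0.0216), Chst3 (0.00397) and Hs6st1 (0.0234) added in RZ. The fit of these 8 arrays without the block added the same genes, so the block was not needed for these calls. Leaving out SZ replicate 4, whose array enters the common variance, gave 3 and 8. Shares among all genes are not given for these fits, so the higher counts cannot be read as particular to the enzymes.

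Other genes of the pathway were counted from lists chosen by function. Of 12 measured genes for nucleotide sugars, their transport and the linkage region, 9 were higher in IDZ than in SZ and 0 in SZ (median SZ minus IDZ -0.46), and 2 were higher in RZ than in IDZ. Pxylp1, which encodes the phosphatase that removes phosphate from the linkage xylose, differed by -1.14 ± 0.18 (SE, adjusted P = 0.000227) between SZ and IDZ. Fam20b, the kinase that puts it there, differed by -0.93 ± 0.13 (adjusted P = 9.13e-05), and Slc35d1, a nucleotide sugar transporter that supplies chondroitin synthesis, by -0.78 ± 0.15 (adjusted P = 0.00127). Kinase and phosphatase were thus lower together in SZ.

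Of 4 measured genes of sulfate supply, 3 were higher in IDZ than in SZ and 0 in SZ. Slc26a2, the sulfate transporter mutated in diastrophic dysplasia, averaged 8.86 in SZ, 10.06 in IDZ and 10.35 in RZ (SZ minus IDZ -1.20 ± 0.13, SE, adjusted P = 7.55e-06). Slc35b2, which carries PAPS into the Golgi, differed by -0.58 (adjusted P = 0.0045) and Slc26a1 by -0.34 (adjusted P = 0.013). Sulfate uptake, PAPS synthesis and PAPS transport were therefore each represented by genes lower in SZ.

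Of 11 further sulfotransferases and keratan sulfate enzymes, 3 rose in SZ relative to IDZ and 2 fell. Both counts were near the shares among the brighter genes, 22.7% and 13.8%. B4galt1 (1.21 ± 0.22, SE, adjusted P = 0.000695), Chst5 (1.02 ± 0.20, adjusted P = 0.00171) and B3gnt7 (-0.66 ± 0.09, adjusted P = 0.000106) had the largest differences. Of 12 measured genes of degradation, 5 were higher in SZ than in IDZ and 1, Sumf2, was higher in IDZ (-0.90 ± 0.11, adjusted P = 1.69e-05). The count for IDZ was near the 9.56% among the 14300 genes. Hyal1, a lysosomal hyaluronidase, differed by 0.81 ± 0.18 (adjusted P = 0.00426) and Hpse, the heparanase that cuts heparan sulfate chains, by 0.69 ± 0.11 (adjusted P = 0.000221).

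Core proteins, to which the chains are attached, were split. Of 20 measured, 4 were higher in SZ than in IDZ, 6 were higher in IDZ and 10 did not pass. The share higher in SZ was near the 17.0% among the 14300 genes, and that among them for IDZ was 9.56%. Vcan, the large chondroitin sulfate proteoglycan versican, averaged 11.36 in SZ, 8.45 in IDZ and 6.48 in RZ (SZ minus IDZ 2.91 ± 0.17, SE, adjusted P = 1.66e-08, IDZ minus RZ 1.97 ± 0.17, adjusted P = 2.69e-06). Epyc, a small dermatan sulfate proteoglycan of cartilage, averaged 8.19, 10.94 and 10.70 (SZ minus IDZ -2.75 ± 0.29, adjusted P = 4.67e-06). Cd44, the hyaluronan receptor, averaged 8.26, 5.99 and 5.89 (SZ minus IDZ 2.27 ± 0.16, adjusted P = 1.19e-07).

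**Figure D4:**
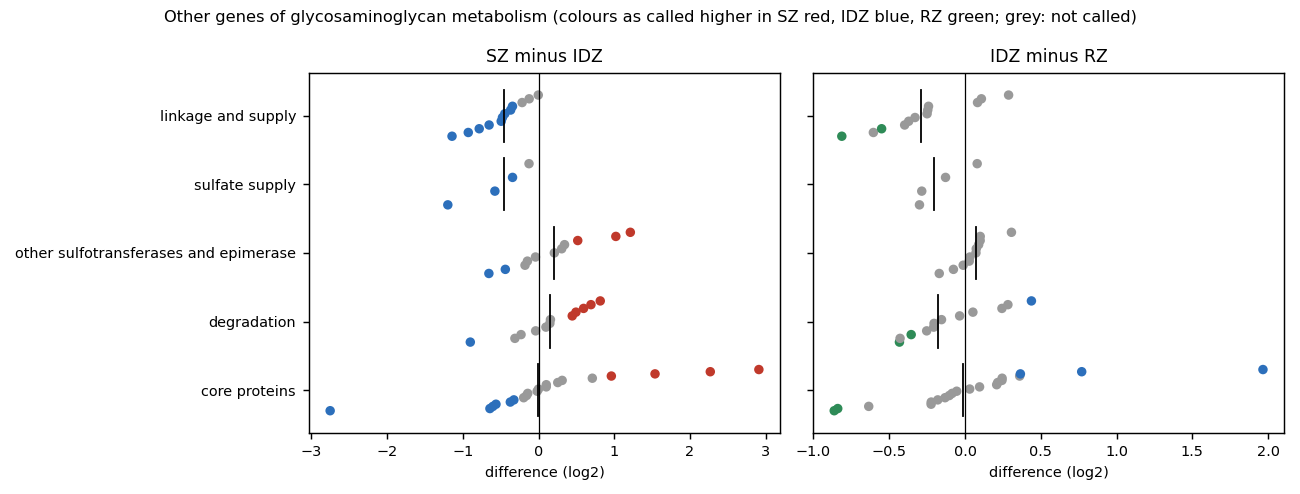
Differences SZ minus IDZ and IDZ minus RZ on the log2 scale (horizontal axes, of unequal range) for other genes of glycosaminoglycan metabolism, 1 point per gene, by list. Short vertical lines are list medians, red, blue and green mark genes higher in SZ, IDZ and RZ at an adjusted P under 0.05 and grey those that did not pass. The supply lists lie left of 0 in SZ minus IDZ, with medians of -0.46, and Vcan is the farthest core protein to the right in both panels, at 2.91 and 1.97.

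Promoter sequences are shown for the 3 enzymes that were at least 2-fold lower in SZ than in both other zones, Papss2, Chst11 and Extl1, and for Sulf2, which had the largest difference in the opposite direction, between SZ and RZ. They are the 250 bases before the gene's start from RefSeq on the rat build GRCr8, 5′ to 3′ on the gene's strand, at chr1:239867463-239867712 (+) for Papss2, chr7:22630442-22630691 (-) for Chst11, chr5:151872831-151873080 (-) for Extl1 and chr3:175323652-175323901 (-) for Sulf2. Capitals mark matches on either strand to GGGCGG (a GC box) or TATAAA.
Papss2: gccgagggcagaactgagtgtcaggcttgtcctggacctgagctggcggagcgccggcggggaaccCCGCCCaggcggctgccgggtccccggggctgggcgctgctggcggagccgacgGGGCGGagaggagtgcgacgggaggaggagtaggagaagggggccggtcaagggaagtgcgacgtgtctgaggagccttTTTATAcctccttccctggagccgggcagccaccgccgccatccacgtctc
Chst11: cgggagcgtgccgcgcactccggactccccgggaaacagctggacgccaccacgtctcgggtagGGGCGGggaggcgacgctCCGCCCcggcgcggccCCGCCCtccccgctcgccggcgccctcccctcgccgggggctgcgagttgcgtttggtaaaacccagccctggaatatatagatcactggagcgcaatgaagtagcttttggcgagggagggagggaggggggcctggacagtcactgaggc
Extl1: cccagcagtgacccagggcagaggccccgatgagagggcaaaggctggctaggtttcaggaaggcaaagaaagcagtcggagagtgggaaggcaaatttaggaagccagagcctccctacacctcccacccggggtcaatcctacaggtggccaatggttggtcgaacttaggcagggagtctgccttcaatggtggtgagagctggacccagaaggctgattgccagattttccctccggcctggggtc
Sulf2: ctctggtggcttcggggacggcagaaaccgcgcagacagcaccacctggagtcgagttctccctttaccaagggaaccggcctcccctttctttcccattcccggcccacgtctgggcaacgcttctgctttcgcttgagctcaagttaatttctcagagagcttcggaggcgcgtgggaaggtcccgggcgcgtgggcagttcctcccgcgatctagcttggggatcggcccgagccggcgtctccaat
Papss2 held 2 GC boxes and 1 TATAAA, Chst11 held 3 GC boxes, and Extl1 and Sulf2 held none of the motifs searched. GGGCGG was found in 30.5% of 33469 rat promoter windows of this length, in 14 of 25 windows of the enzymes and in 5 of the 10 windows of enzymes with a 2-fold difference. Those 5 were Ugdh, Papss2, Chsy1, Chst3 and Chst11, which includes an enzyme higher in SZ. TATAAA was in 12.9% of all windows and 1 of 25, TGACGTCA in 1.59% and 2 of 25, TGANTCA in 6.34% and 0 of 25, and AACAAT in 10.3% and 0 of 25. A match describes the letters in the window and is no measure of binding.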

How the data were processed

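Total RNA of the dissected zones was labelled and hybridised to Affymetrix Rat Gene 1.0 ST arrays. The authors ran robust multi-array averaging (background adjustment, quantile normalization and median polish) in Partek Genomics Suite 6.6, and the deposited log2 values, 1 per transcript cluster, were used with no further normalization. Such values compress small signals, so low genes show smaller differences, and have no true 0. The genome build behind the clusters is not given in the sources used here. Columns that belong to no sample of the series numbered 0. The precision is limited by the number of arrays.

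Clusters were named from the platform annotation, which gives 1 symbol for 15068 clusters, several for 323 and none for 11951. A gene was represented by its brightest cluster. A linear model with a mean for each zone was fitted to the 12 arrays with limma 3.58.1 in R 4.3.3, and Benjamini-Hochberg adjustment of P covered the 27342 clusters of a comparison. Pairs of enzymes were compared by two-sided exact permutation tests in Python 3.11.15 with pandas 2.3.3, figures were drawn with matplotlib 3.10.9, and motifs were searched in RefSeq promoter windows. In values simulated on 27342 clusters, 41, 48 and 44 of 50 clusters shifted 2-fold, and 30, 27 and 35 of 50 shifted 1.5-fold, were recovered for SZ with IDZ, IDZ with RZ and SZ with RZ. The simulation gave the 3 zones the same spread and left 27142 clusters unshifted. The data differ in both respects, so these rates are not the power of the real comparisons.

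The enzymes, roles, pairs and lists were chosen with earlier results of these data known. Values on every array are given for enzymes past both thresholds (adjusted P under 0.05 and 2-fold) and for pairs whose difference did not overlap between zones, the others by count, with the largest differences of each list named. Alternatives were other variance models, fits of 2 zones, a block for animals, 2 other scalings, no dim clusters, a 2-fold minimum, a test against 2-fold, other choices among the clusters of a gene, and each array left out. IDZ and RZ samples of one number are paired by their animals in the labels. The correlations of their deviations from zone means were 0.02, 0.02, 0.03 and 0.21, with a consensus correlation of -0.14.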

Additional observations from a re-analysis of the deposited data

Results flagged for a closer look

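In 6 of the 102 sets of 4 arrays (34 enzymes in 3 zones), 1 array lay far from the other 3, where chance gives about 1 in 20. Has3 stood at 7.25 in SZ replicate 4, against 6.66 to 6.74 on the other SZ arrays, and B3gat3 at 8.65 on the same array, against 9.23 to 9.29. B3gat3 stood at 9.50 in IDZ replicate 1, against 9.67 to 9.69. Hs3st1 stood at 7.92 in IDZ replicate 2, against 7.75 to 7.77, and at 7.71 in RZ replicate 2, against 7.47 to 7.51. Xylt1 stood at 11.90 in IDZ replicate 4, where the other 3 arrays were all at 11.91.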

How the results depend on the processing

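No difference of a called enzyme reversed in any alternative, nor did that of a pair with any array left out or with the mean of a gene's clusters, the alternatives run for pairs. With a random block for the pairs of animals, each called enzyme kept its call. That fit used a correlation of -0.14 for every cluster and put SZ samples of different animals in the same block. It therefore does not settle what the animals shared between SZ and the other zones contribute. With a minimum of 2-fold, 3 enzymes were higher in SZ and 3 in IDZ, 0 in RZ against IDZ, and 4 in SZ and 7 in RZ between these zones. Tested against 2-fold, these counts were 0 and 0 (SZ and IDZ), 1 and 0 (IDZ and RZ), and 2 and 3 (SZ and RZ). Higher in IDZ than in RZ were 4 enzymes when the 2 zones were fitted alone, 4 with the replicate block and 4 after a second quantile normalization, and higher in RZ were 8 when fitted alone and 8 with the replicate block. The second normalization also added Papss2 and Chst3 to those higher in RZ than in IDZ. Between SZ and IDZ it added Csgalnact2, Chpf and Ext2 to those higher in IDZ, 16 in all, and Ugdh, Chsy1 and Has2 kept their call. Between SZ and RZ it added B3gat3, Chpf, Ext2, Hs6st1 and Has2 to those higher in RZ. Shares among all genes are given for the main fit, with and without the 2-fold minimum, and not for the other alternatives. Leaving out each array in turn gave 10 to 13 enzymes higher in SZ and 10 to 12 in IDZ, 2 to 3 in IDZ and 4 to 8 in RZ (8 without SZ replicate 4), 10 to 11 in SZ and 12 to 14 in RZ, and 23 to 27 with any difference. With the 2 zones fitted alone or the arrays centred on the median, Ugdh, Chsy1 and Has2 lost their call between SZ and IDZ, with plain one-way contrasts Ugdh, Has2 and Sulf2 did, and without dim clusters Has1 was not tested. Without 1 array an exact test of a pair cannot go below 0.0571, so for pairs the values alone were recomputed. Of 50 simulated clusters shifted 1.5-fold, 27 to 35 were recovered, but the simulation differs from the data and these rates are not the power of the real comparisons. An enzyme that did not pass may still differ between zones.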
